A study of Homo sapiens with 12 samples.

Results

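The comparison described here sets A375 melanoma cells given the kinase inhibitor SEL201 together with the bromodomain inhibitor OTX015 against A375 cells given neither, across all measured genes. Its members are the 3 libraries titled with both agents (COMBO) and the 3 titled UNTREATED, 6 of the 12 libraries of the study, matched by the replicate number 1 to 3 in their labels. COMBO cells received SEL201 at 2.5 µM and OTX015 at 50 nM for 72 hours, and UNTREATED cells received no inhibitor and have DMSO, the drug solvent, as their treatment label. All 6 libraries come from 1 human melanoma line that carries an activating BRAF mutation, grown in the same medium, so the values describe that line only. The remaining 6 libraries, with SEL201 or OTX015 alone at the same doses, helped to estimate the spread and are used for a few levels at the end.

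SEL201 blocks MNK1 and MNK2, kinases that ERK and p38 activate and that phosphorylate eIF4E, the protein that binds the cap of an mRNA and recruits it for translation. OTX015 keeps BET proteins from binding acetylated histones, through which they help RNA polymerase II to start and elongate transcripts. Melanoma cells are known to differ along an axis from a pigmented melanocytic state to a dedifferentiated, invasive one, and the invasive state is known for matrix, cytoskeletal and inflammatory genes.

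Counts over the 8579 measured genes summed to 15146071 to 23247709 per library in COMBO and 20346729 to 24111541 in UNTREATED. The mean counts of these genes ran from 78.7 to 9159, and genes outside that range were not analysed here. Levels are given as CPM, counts scaled to a common total over these genes, which cannot show a shift common to all of them. No label tells whether the libraries of a group are separate cultures, and the spread behind each p-value may therefore be technical. In the 3 COMBO and UNTREATED pairs of 1 number, the deviations from the group means correlated across genes at 0.32 to 0.52, and the tests use the number as a block. Of 8 melanocyte lineage markers 4 were in the table: MITF, the lineage transcription factor, had 149 to 158 CPM in COMBO and 165 to 187 CPM in UNTREATED, S100B was also clearly present, and the pigment genes PMEL and MLANA had only 3.57 to 7.58 CPM in all 6 libraries. TYR, TYRP1, DCT and SOX10, and every one of the 4 leukocyte and 3 endothelial defining markers, were not analysed here. In longer lists, 1 of 16 leukocyte, 3 of 11 endothelial and 6 of 11 fibroblast markers were measured. Of the 4 defining fibroblast markers, COL1A1, DCN and PDGFRB summed to 56.2 to 57.0 CPM in COMBO and 86.8 to 116 CPM in UNTREATED. In such bulk libraries, fewer cells of the line that express a gene and less of its RNA per cell cannot be told apart.

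COMBO altered most measured genes by small amounts, and its large changes were mainly falls. By edgeR's quasi-likelihood test at a Benjamini-Hochberg adjusted p under 0.05, 2876 of 8579 genes (33.5%) were higher and 2934 (34.2%) were lower in COMBO than in UNTREATED. The counts of called members given below for each gene list are to be read beside these shares. Only 175 genes (2.04%) were at least 2-fold higher, while 590 (6.88%) were at least 2-fold lower, and at 4-fold the counts were 14 and 148. The median log2 change was 0.00137, with quartiles at -0.28 and 0.23. The scaling of the libraries sets this median close to no change, so only the quartiles describe how far genes moved from each other. The COMBO libraries lay above all UNTREATED libraries in 2622 genes (30.6%) and below them all in 2750 (32.1%). Across the 3 number-matched pairs, the log2 change of a gene had a median SD of 0.094, against a median absolute change of 0.26. The plot of change against level shows that the large falls included abundant genes such as MMP9 and KRT80.

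**Figure D1:**
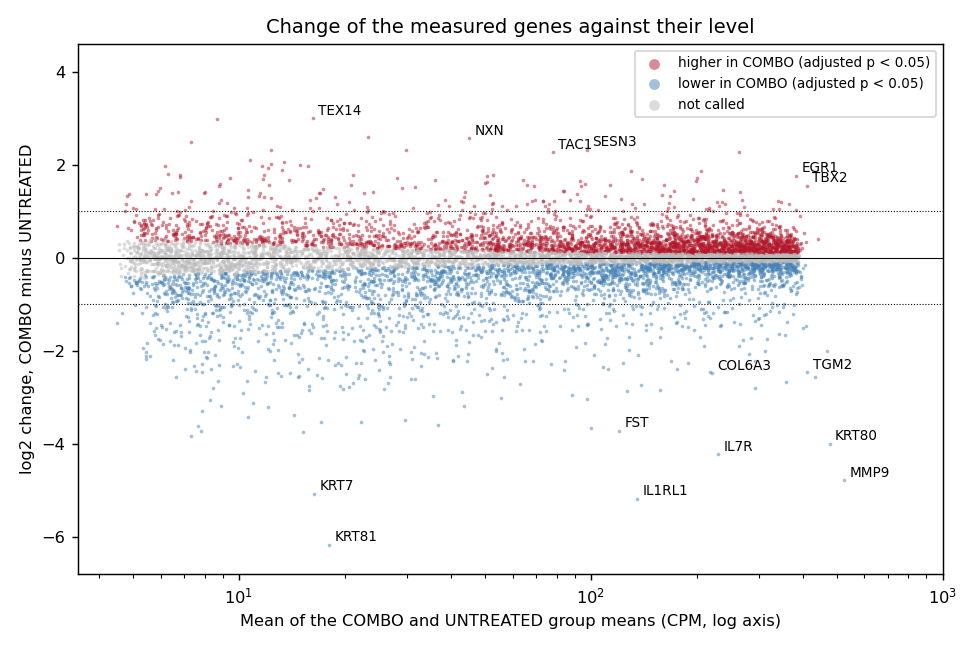
Fitted log2 change of COMBO minus UNTREATED (vertical axis) against the mean of the COMBO and UNTREATED group means in CPM (horizontal log axis); each point is 1 of 8579 genes and dotted lines mark 2-fold. More points lie beyond 2-fold below 0 (590 called) than above it (175 called), and MMP9, KRT80 and TGM2 combine high levels with large falls.

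TGM2, the tissue transglutaminase named in the series title, had 114, 113 and 152 CPM in COMBO libraries 1 to 3, against 620, 605 and 873 CPM in the UNTREATED libraries. Library 3 was the highest of its group in both, and the groups lay far apart. The log2 change was -2.46 (SE 0.04, edgeR adjusted p = 2.1e-30), a 5.5-fold lower level, but since the title names the gene it is no independent finding. TGM1, the keratinocyte transglutaminase, had a log2 change of -0.02 that did not pass (SE 0.15, edgeR adjusted p = 0.9).

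Few genes of the drug targets could be measured. MKNK1, which encodes the SEL201 target MNK1, had 314, 319 and 324 CPM in COMBO, against 223, 226 and 221 CPM in UNTREATED, a log2 rise of 0.51 (SE 0.04, edgeR adjusted p = 1e-13) with no overlap. EIF4A1, the RNA helicase that works beside eIF4E, had 51, 49.4 and 77.4 CPM in COMBO, against 42, 40.8 and 61 CPM in UNTREATED. The groups overlapped because both number 3 libraries were high, and the log2 rise of 0.30 (edgeR adjusted p = 0.00036) rested on the pairing (adjusted p = 0.24 without the replicate block). EIF4ENIF1, an eIF4E-binding repressor, had a log2 change of 0.07 that did not pass (edgeR adjusted p = 0.17), but passed without UNTREATED replicate 3 (0.11, edgeR adjusted p = 0.0401). ATAD5, a replication factor that binds BET proteins, rose by 0.17 (adjusted p = 0.0001). MKNK2, EIF4E and the BET genes were not analysed here.

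Of 9 listed genes known to react to BET inhibitors, 3 were measured, and all rose, where 33.5% of all genes were called higher. The list was chosen with earlier results of these data known, so the 3 rises are no independent finding. FAM46C, a noncanonical poly(A) polymerase, had 24.5, 18.8 and 28.5 CPM in COMBO, against 5.58, 5.97 and 6.05 CPM in UNTREATED. SERPINI1, the brain serpin neuroserpin, had 19.6, 15.6 and 19.8 CPM in COMBO, against 5.62, 4.98 and 5.21 CPM in UNTREATED. HIST2H2BE, a replication-independent source of polyadenylated H2B mRNA, had 28.8, 28.2 and 36.3 CPM in COMBO, against 10.3, 9.62 and 11.4 CPM in UNTREATED. Their log2 changes were 2.01, 1.79 and 1.57, and the groups did not overlap in any of them.

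The largest falls combined epithelial keratins, cytokine receptors and secreted proteins. IL1RL1, the receptor of the alarmin IL-33, had 6.46, 5.55 and 10.5 CPM in COMBO, against 252, 284 and 254 CPM in UNTREATED (36.4-fold lower; log2 change -5.19, SE 0.13). MMP9, a gelatinase that degrades basement membrane collagen, had 27.3, 30.7 and 52.8 CPM in COMBO, against 904, 750 and 1382 CPM in UNTREATED (27.6-fold lower; log2 change -4.79, SE 0.06). IL7R, the interleukin-7 receptor chain, had 21.9, 23.3 and 24.5 CPM in COMBO, against 386, 441 and 484 CPM in UNTREATED (18.7-fold lower; log2 change -4.22, SE 0.06). The edgeR adjusted p was 2.1e-24 for IL1RL1, 2.2e-32 for MMP9 and 2.1e-30 for IL7R. The largest falls and rises were picked among called genes without overlap between the groups, so that separation is no added evidence. KRT81, a hair keratin, fell furthest (log2 change -6.17, SE 0.26) but kept only 6, 5 and 18 counts in COMBO, against 737, 1011 and 666 in UNTREATED. Its change was -7.14 without COMBO replicate 3 and -7.20 without both number 3 libraries and those of the single agents.

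Other large falls touched extracellular signalling and metabolism. FST, the secreted activin antagonist follistatin, had 18.6, 18.8 and 13.6 CPM in COMBO, against 239, 247 and 188 CPM in UNTREATED, and here library 3 was the lowest of both groups. NNMT, which methylates nicotinamide and so uses up methyl donors, had 16.2, 16.6 and 10.8 CPM in COMBO, against 181, 202 and 175 CPM in UNTREATED. ARHGDIB had 5.43, 5.27 and 6.22 CPM in COMBO, against 58.8, 66.5 and 79.1 CPM in UNTREATED. These 3 genes were 13.2-fold, 12.7-fold and 12-fold lower. SERPINB5 and SERPINB7, serpins of epithelia, fell 13.2-fold and 11.6-fold, the guidance gene SEMA5A 11.5-fold and the tetraspanin-like TM4SF18 11.2-fold. MYO7B, a brush border myosin, fell 14.2-fold and CALB1, a calcium buffer, 13.3-fold, on 14 to 28 and 20 to 52 counts per COMBO library.

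Among genes with established names, the largest rises were led by TEX14, a gene of germ cell bridges, with 23.7, 30 and 32.7 CPM in COMBO, against 2.83, 3.61 and 4.37 CPM in UNTREATED (8-fold; SE of the log2 change 0.13, edgeR adjusted p = 1.7e-18). NXN, the redox protein nucleoredoxin, had 79.7, 65.8 and 86.9 CPM in COMBO, against 15, 12.6 and 11 CPM in UNTREATED. SESN3, a sestrin that restrains mTORC1 under stress, had 160, 160 and 167 CPM in COMBO, against 30.9, 33.3 and 33.2 CPM in UNTREATED. The log2 changes of NXN and SESN3 were 2.57 (SE 0.10) and 2.32 (SE 0.06). TAC1, the precursor gene of the neuropeptide substance P, had 128, 109 and 152 CPM in COMBO, against 26.3, 25.1 and 28.6 CPM in UNTREATED. TBX10, a T-box transcription factor, had 384, 468 and 462 CPM in COMBO, against 87.1, 89.1 and 93.7 CPM in UNTREATED, and was the most abundant of the 14 large rises given here. SYT12, a synaptotagmin, rose 5.64-fold, EFR3B, which anchors a lipid kinase at the plasma membrane, 5.01-fold, ATP1B2, a beta subunit of the sodium pump, 4.3-fold, ID4, an inhibitor of basic helix-loop-helix factors, 4.19-fold and CLVS2 4.06-fold. The protocadherin PCDH19, the tubulin-binding TPPP, STOX1 and the integrin ligand EDIL3 rose 3.84-fold to 3.96-fold.

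**Figure D2:**
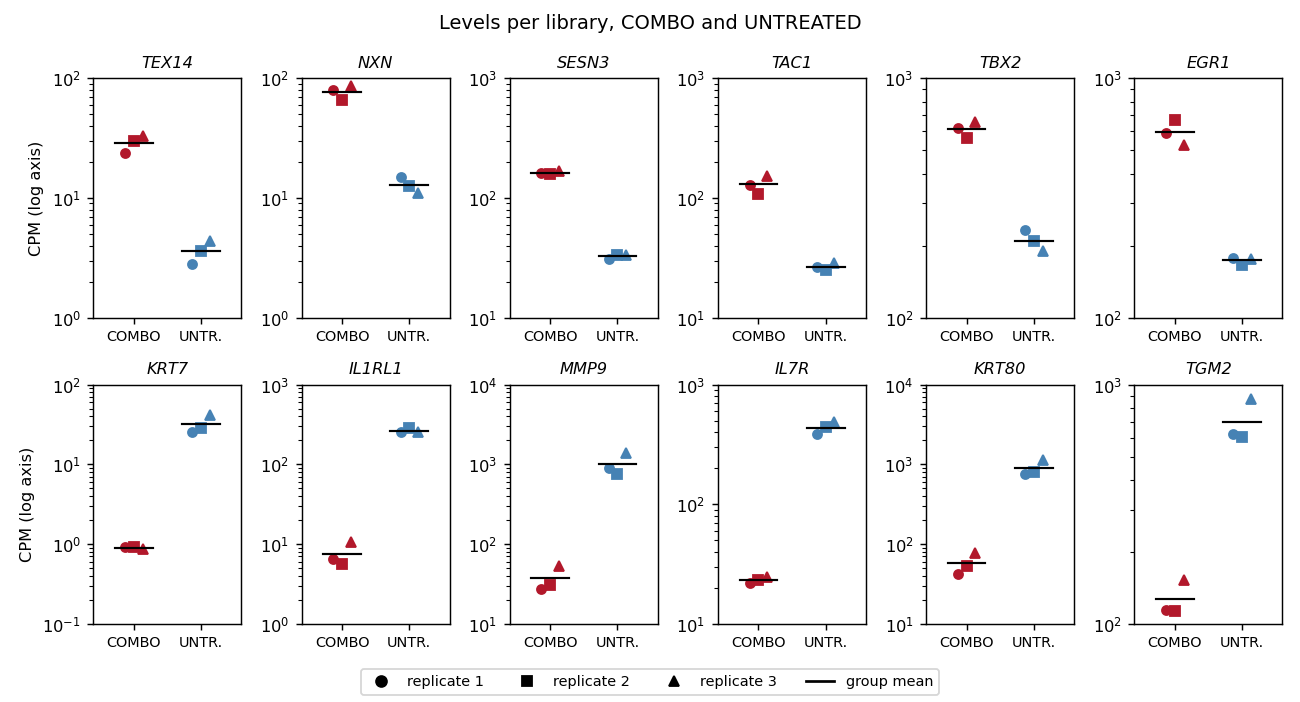
CPM on a log axis in each COMBO library (left, red) and UNTREATED library (right, blue) for 6 genes that rose (upper row) and 6 that fell (lower row); symbols mark replicates 1 to 3 and bars the group means. The 3 COMBO points lie above all UNTREATED points in the upper row and below them in the lower row, for example 160 to 167 CPM against 30.9 to 33.3 CPM for SESN3. Except for TBX2, EGR1 and TGM2, the genes were picked with that separation required.

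Interferon-stimulated genes, which cells switch on in response to interferons to restrict viruses, were lower as a group. Of 46 measured members of a list of 70, 41 (89.1%) were lower and 3 (6.52%) higher, with 16 at least 2-fold lower and a median log2 change of -0.67. Over all genes the matching shares were 34.2% and 33.5%. The median was -0.70, -0.73 and -0.66 in pairs 1, 2 and 3. IFI44, an interferon-induced cytoplasmic protein, had 40.3, 44.8 and 41.7 CPM in COMBO, against 151, 154 and 148 CPM in UNTREATED (log2 change -1.84, SE 0.06, edgeR adjusted p = 3.2e-22). ISG20, an exonuclease that degrades viral RNA, had 109, 97.2 and 92.6 CPM in COMBO, against 298, 277 and 264 CPM in UNTREATED. IFITM2, which blocks viral entry at endosomes, fell by 2.05 on the log2 scale, BST2, the tetherin that holds virions at the surface, by 1.82, and GBP1, an interferon-induced GTPase, by 1.56. The RNA sensor genes IFIH1 (-1.32) and DDX58 (-0.67) also fell, as did OAS1 (-1.33) and OAS2 (-1.51), which make the second messenger that activates RNase L.

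Several of these genes carry an interferon response element just upstream of their start site. In the RefSeq promoter table (build GRCh38.p14), 34 of the 46 members had a promoter, and 18 of those (52.9%) held the letters GAAA, any 2 bases and GAAA again, on either strand, within 250 bases upstream, against 139 of 6096 promoters of all measured genes (2.28%). Since only 73.9% of the members and 71.1% of all genes had a promoter, neither share can stand for its whole set. The share describes the list of interferon-stimulated genes, and its relation to their change in COMBO was not tested. The windows of ISG20 (chr15:88638892-88639011, plus strand), IFI44 (chr1:78649669-78649788, plus strand), GBP1 (chr1:89065271-89065390, minus strand), BST2 (chr19:17405690-17405809, minus strand) and DDX60 (chr4:168318753-168318872, minus strand) are shown because these genes fell and hold the letters. Each is 120 bases on the strand of the gene, 5′ to 3′, with the matches in capitals, and TTTC at both ends of a match marks the reverse strand.
ISG20: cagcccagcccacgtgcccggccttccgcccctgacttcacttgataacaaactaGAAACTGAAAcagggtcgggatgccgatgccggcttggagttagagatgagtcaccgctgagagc
IFI44: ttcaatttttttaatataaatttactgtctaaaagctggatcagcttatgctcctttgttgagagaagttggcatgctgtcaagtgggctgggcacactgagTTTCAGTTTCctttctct
GBP1: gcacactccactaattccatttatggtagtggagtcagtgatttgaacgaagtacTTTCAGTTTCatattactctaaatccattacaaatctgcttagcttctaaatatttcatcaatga
BST2: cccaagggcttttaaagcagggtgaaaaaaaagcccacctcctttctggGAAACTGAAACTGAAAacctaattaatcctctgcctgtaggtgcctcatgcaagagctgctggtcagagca
DDX60: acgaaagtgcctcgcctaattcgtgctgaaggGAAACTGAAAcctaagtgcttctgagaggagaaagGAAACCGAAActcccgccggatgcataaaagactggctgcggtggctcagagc
The 2 matches of BST2 overlap and the 2 of DDX60 do not. BST2 had 6.33, 8.23 and 3.9 CPM in COMBO, against 21.6, 29.2 and 14.9 CPM in UNTREATED. DDX60, a helicase that assists RNA sensing, had 23.5, 23.4 and 28.7 CPM in COMBO, against 47.3, 46.8 and 54.8 CPM in UNTREATED. A match describes the sequence and is not a measured binding site.

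The 3 members that rose were IRF7, STAT2 and IFI6. IRF7, the transcription factor that amplifies interferon production, had 118, 119 and 132 CPM in COMBO, against 43.1, 41.4 and 51.3 CPM in UNTREATED (log2 change 1.45, SE 0.06, edgeR adjusted p = 5.6e-20). STAT2, a subunit of the factor that binds the element above, rose by 0.39, and IFI6 by only 0.15, a call that was lost without COMBO replicate 2 (log2 change 0.14) and without UNTREATED replicate 3 (0.11). SOCS1, which shuts off JAK kinases, had 10.2, 8.97 and 12.6 CPM in COMBO, against 2.62, 2.66 and 3.97 CPM in UNTREATED (log2 change 1.78). Its relatives moved the other way: SOCS2 fell 2.96-fold and SOCS3 1.99-fold. Over the 30 measured JAK-STAT and cytokine receptor genes, 17 (56.7%) were lower and 8 (26.7%) higher. Beside IL1RL1 and IL7R, the IL-18 receptor gene IL18R1 fell 8.08-fold and STAT5A 2.49-fold, while IFNGR1 and LIFR, receptor chains for interferon gamma and leukaemia inhibitory factor, rose by 0.38 and 0.80.

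**Figure D3:**
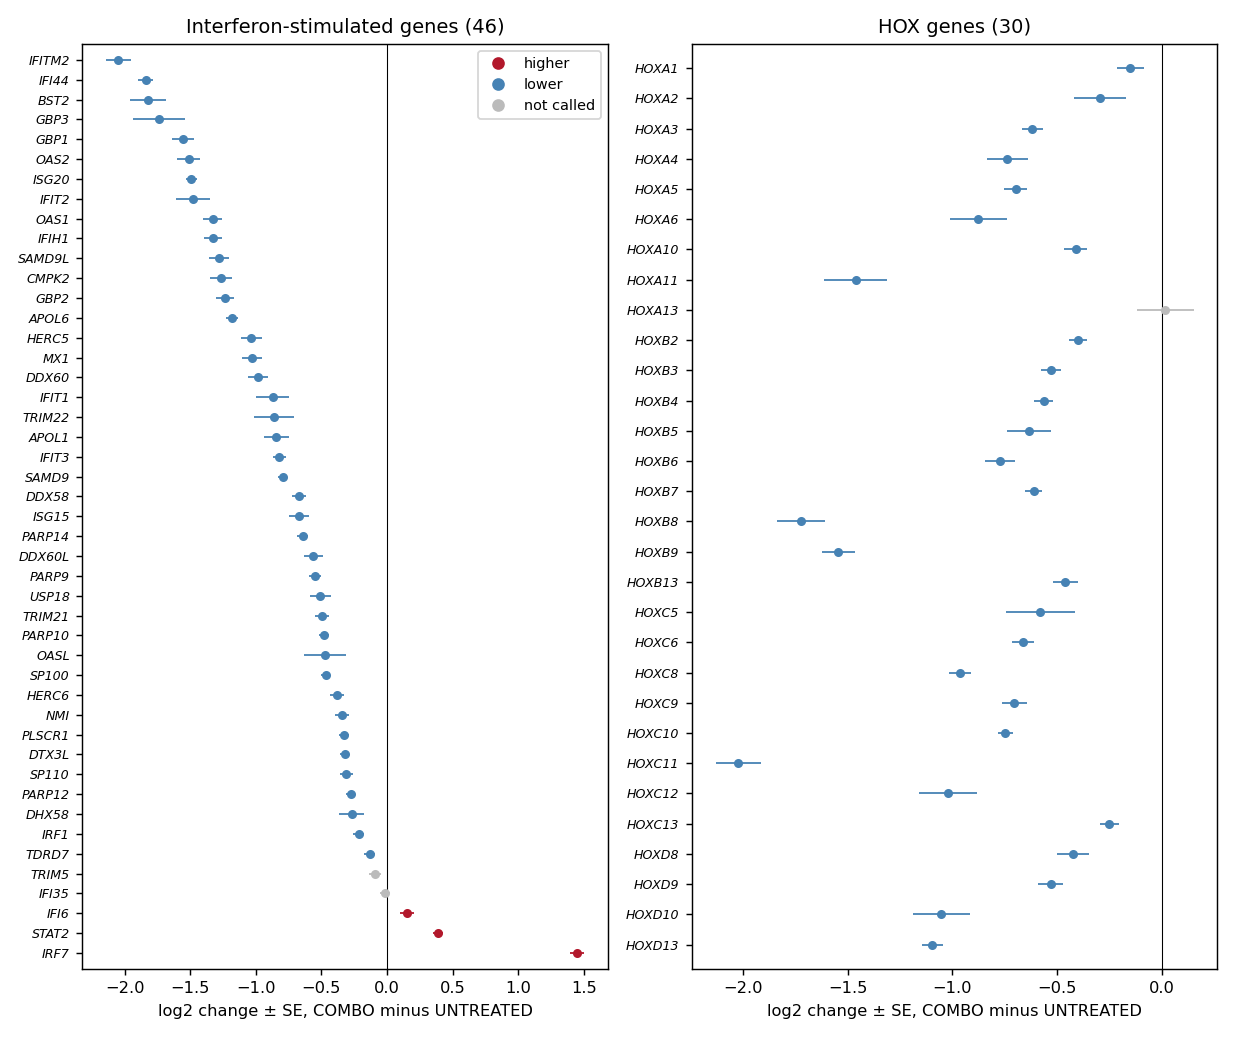
Fitted log2 change with its SE for the 46 measured interferon-stimulated genes (left) and the 30 measured HOX genes in cluster order (right), COMBO minus UNTREATED; colours give the call at an adjusted p under 0.05. All but 5 interferon-stimulated genes and all but HOXA13 among the HOX genes lie below 0 and are called lower.

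Secreted inflammatory mediators were also mostly lower. Of 20 measured cytokines, chemokines and inflammatory effectors, 15 (75%) were lower, 12 of them at least 2-fold, and 2 were higher (1 without the replicate block), with a median log2 change of -1.35. CCL2, the monocyte chemoattractant, had 160, 201 and 201 CPM in COMBO, against 651, 792 and 804 CPM in UNTREATED (4-fold lower). CSF2, the cytokine GM-CSF, had 32.7, 39.6 and 41.2 CPM in COMBO, against 121, 129 and 183 CPM in UNTREATED. PTGS2, the inducible cyclooxygenase, had 86.7, 101 and 76.3 CPM in COMBO, against 343, 410 and 242 CPM in UNTREATED. Groups did not overlap in any of them, and IL32 and the prostaglandin synthase gene PTGES fell by 2.18 and 1.95 on the log2 scale. The exceptions were CX3CL1, a membrane-bound chemokine that rose by 1.18, and the collagenase gene MMP1, whose libraries overlapped and whose log2 change of 0.36 passed only with the pairing.

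Receptors and regulators around these mediators moved less evenly. Of 13 TNF family ligands and receptors 11 (84.6%) were lower: TNFRSF8, which encodes CD30, had 34.2, 42.1 and 31 CPM in COMBO, against 191, 185 and 190 CPM in UNTREATED, and TNFRSF14, the HVEM receptor, fell 3.42-fold. Of 17 antigen presentation genes 2 were higher (1 without the replicate block), LGMN by 1.03 and HLA-DMA by 0.13 on the log2 scale. The 11 lower ones (64.7%) included the protease CTSS (log2 change -1.77), the peptide trimmer ERAP2 (-1.48) and the immunoproteasome subunits PSMB8 (-0.90), PSMB9 (-0.51) and PSMB10 (-0.53). By contrast, NF-kB factors and regulators stayed close to the background, with 8 of 18 (44.4%) lower, none of them 2-fold, and a median of -0.03. CD274, the checkpoint ligand PD-L1, had 28.6, 25.7 and 28 CPM in COMBO, against 28.8, 34.1 and 35.9 CPM in UNTREATED, a small fall of 0.26 (edgeR adjusted p = 0.009).

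The gene families of the extracellular matrix were lower in most of their measured members. Of 18 collagens 15 (83.3%) fell and 3 rose, with a median of -0.78 (13 and 1 without the replicate block). COL6A3, a chain of the microfibrillar type VI, had 66.5, 60.5 and 74.4 CPM in COMBO, against 400, 315 and 409 CPM in UNTREATED (5.57-fold lower). COL12A1, a fibril-associated collagen, had 48.3, 62.6 and 69.9 CPM in COMBO, against 250, 254 and 329 CPM in UNTREATED. Among 31 laminins and basement membrane genes 22 (71.0%) fell and 7 rose, with a median of -0.80. LTBP2, a latent TGF-beta binding protein family member, fell 6.67-fold, and the proteoglycan genes LUM and DCN 5.86-fold and 5.36-fold. The list also held rises in genes of cell surface proteoglycans: GPC5 had 21.3, 19.1 and 23 CPM in COMBO, against 5.66, 5.97 and 8.44 CPM in UNTREATED, and SDC2 rose 2.23-fold. LUM, DCN, COL1A1 and PDGFRB are also fibroblast markers. Since all libraries come from 1 melanoma line, they are read here as genes of that line, which was not tested.

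Matrix proteases were mostly lower, with exceptions among the metalloproteinases. Of 32 matrix proteases and inhibitors, 21 (65.6%) were lower and 8 (25%) higher. ADAMTS and ADAMTSL genes, which encode secreted aggrecanases and related proteins, were lower in 13 of 16 (median -0.64), with ADAMTS4 at 7.28, 5.78 and 6.35 CPM in COMBO, against 39.7, 37.7 and 40.4 CPM in UNTREATED. Of 9 matrix metalloproteinases 5 were lower, 4 of them at least 2-fold, and 4 higher, with a median of -0.91. The collagenases MMP8 and MMP13 fell 6.07-fold and 6.26-fold, but MMP15 and MMP17, which are anchored in the plasma membrane, rose 2.39-fold and 2.35-fold. MMP17 was among the abundant ones, with 440, 436 and 560 CPM in COMBO, against 201, 185 and 223 CPM in UNTREATED. Of 15 serpins, which inhibit serine proteases, 11 (73.3%) were lower with a median of -1.31, and SERPINI1 was the only one at least 2-fold higher.

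Keratins, the filament proteins of epithelia, were lower without exception among those measured. All 9 measured keratins fell, 8 of them at least 2-fold, with a median of -2.09. KRT80 had 41.8, 52.8 and 76.6 CPM in COMBO, against 751, 809 and 1136 CPM in UNTREATED, and KRT7, typical of simple epithelia, had 0.905, 0.925 and 0.86 CPM in COMBO, against 25.7, 28.4 and 41.3 CPM in UNTREATED. KRT14, of basal epithelia, had 36, 42 and 38.5 CPM in COMBO, against 155, 167 and 176 CPM in UNTREATED, and KRT8 fell 2.03-fold. KRT6A and KRT6B are near-identical genes whose reads the counting could split, and both were lower. Of the defining epithelial markers only KRT8 was measured, at 93.1 to 102 CPM in COMBO and 193 to 204 CPM in UNTREATED. Since all libraries come from 1 melanoma line, KRT8 is read here as a gene of that line, which was not tested. Of 13 tight and gap junction genes 7 were lower and 3 higher. The tight junction genes CLDN4 and CLDN1 fell 2.94-fold and 2.71-fold and the desmosomal plakophilin PKP3 2.28-fold. Of 68 cadherins and protocadherins 34 (50.0%) were lower and 14 (20.6%) higher, 8 of them without the replicate block. CDH19, a cadherin of Schwann cell precursors, had 62.4, 60.9 and 77.6 CPM in COMBO, against 343, 327 and 443 CPM in UNTREATED. Of 39 clustered protocadherins, whose similar exons share reads, 25 were lower and 1 higher, while the nonclustered PCDH10 and PCDH19 rose by 1.57 and 1.98 on the log2 scale.

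**Figure D4:**
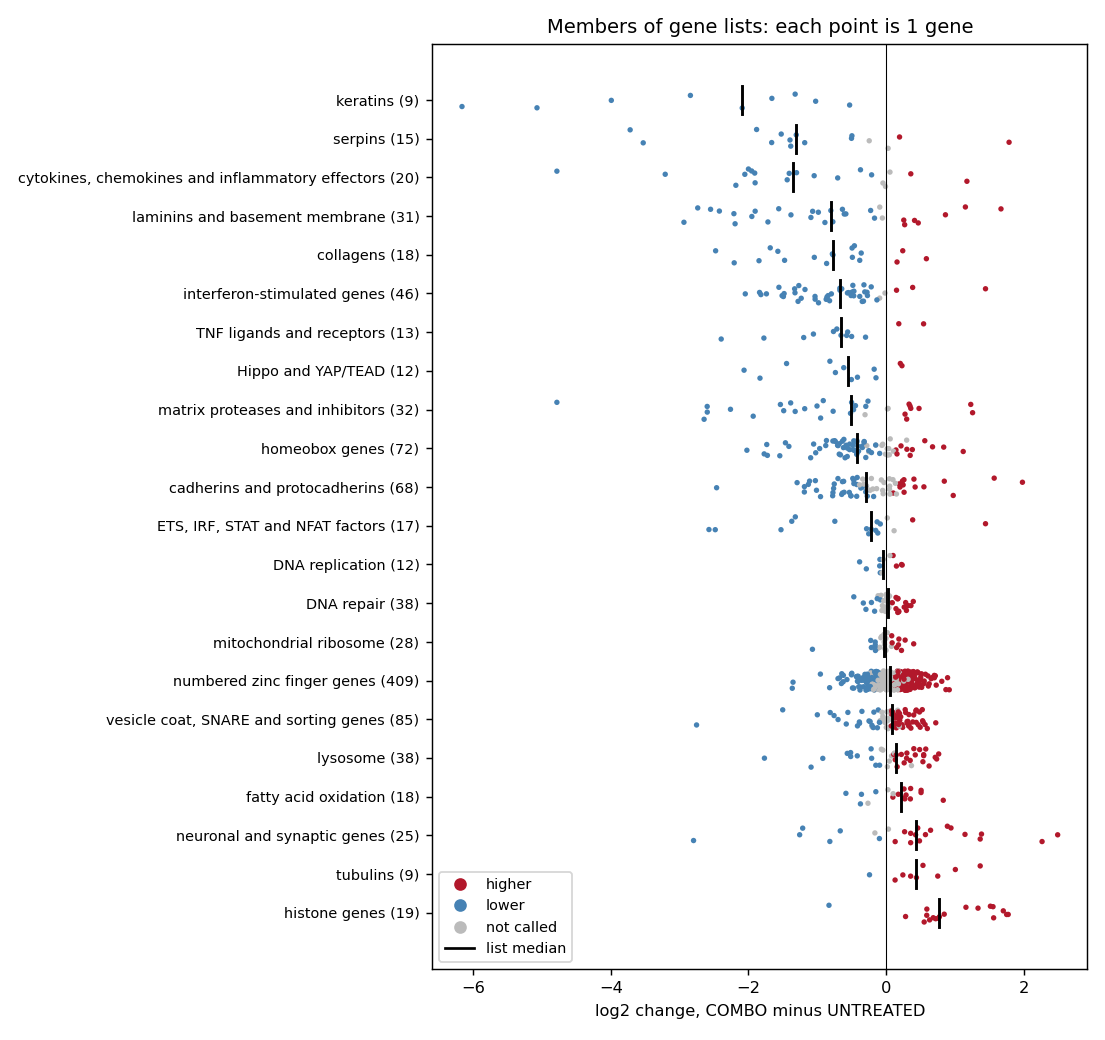
Log2 change of COMBO minus UNTREATED for the members of 22 gene lists (1 point per gene, coloured by its call; the number of measured members in brackets and 1 member of the neuronal list not drawn), with a bar at each list median. Keratins, serpins and cytokines have medians below -1, replication and repair genes lie around 0, and histone genes have a median of 0.78.

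The list of the Hippo pathway, which restrains the growth regulator YAP, also held partners and targets of YAP. Of its 12 measured genes 10 (83.3%) were lower, with a median of -0.56, while VGLL4 and STK3 rose by 0.23 and 0.21. ANKRD1, a classic YAP target, had 10.6, 12.5 and 16 CPM in COMBO, against 42.2, 59.9 and 61 CPM in UNTREATED, TEAD2, a DNA-binding partner of YAP, fell 3.56-fold and AJUBA, a LATS inhibitor, 2.73-fold. The other well-known YAP targets moved less: CYR61 fell by 0.82 and CTGF by 0.15, with overlapping libraries for CTGF.

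Markers of melanoma states did not move as 1 block. Of 9 measured genes of the invasive or dedifferentiated state 7 (77.8%) were lower and none higher, with a median of -1.18. DKK1, a secreted Wnt antagonist, had 157, 195 and 275 CPM in COMBO, against 474, 540 and 768 CPM in UNTREATED, NRG1, a ligand of ERBB3, fell 3.45-fold and the kinase NUAK1 2.92-fold. Of 9 neural crest genes 6 were higher and 3 lower. SNAI2, which encodes Slug, had 31.9, 22.2 and 22.6 CPM in COMBO, against 10.9, 8.63 and 7.84 CPM in UNTREATED, while NGFR, the CD271 receptor, fell by 0.70 and PRDM1 4.67-fold. Of 17 melanocytic genes 7 (41.2%) were higher and 4 (23.5%) lower. S100B had 115, 103 and 91.8 CPM in COMBO, against 56.4, 59.5 and 46.3 CPM in UNTREATED, MITF fell by 0.17, and the melanosome genes MLPH and GPNMB fell 4.07-fold and 2.08-fold.

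Homeobox genes, which set positional identity along the body axes, were lower in 49 of 72 (68.1%) and higher in 10 (13.9%), with a median of -0.42. When the list was divided, after its values were seen, the 30 genes of the 4 HOX clusters were nearly all lower: 8 of 9 in HOXA, 9 of 9 in HOXB, 8 of 8 in HOXC and 4 of 4 in HOXD. HOXC11 had 11.6, 11.7 and 13.3 CPM in COMBO, against 43.7, 51.2 and 53.5 CPM in UNTREATED (4.07-fold lower). HOXB9 had 32.4, 33.9 and 32.1 CPM in COMBO, against 102, 92 and 91.3 CPM in UNTREATED, and HOXC10, a more abundant member, had 234, 229 and 214 CPM in COMBO, against 384, 387 and 365 CPM in UNTREATED. HOXA13 was the single HOX gene that was not called. The other 42 homeobox genes were lower in 20 and higher in 10. TGIF2, a repressor in TGF-beta signalling, fell 2.66-fold, and POU3F1 and IRX5 rose by 1.12 and 0.84 on the log2 scale.

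Other transcription factor families showed both directions. Of 17 ETS, IRF, STAT and NFAT factors 13 (76.5%) were lower, with the epithelial factor EHF down 5.96-fold, FLI1 down 2.88-fold and NFATC1 down 2.59-fold. TBX2, a T-box repressor known from melanoma, had 620, 563 and 659 CPM in COMBO, against 232, 209 and 189 CPM in UNTREATED (log2 change 1.55). ID2, like ID4 an inhibitor of basic helix-loop-helix factors, had 108, 93.8 and 93.9 CPM in COMBO, against 37.8, 31 and 30.9 CPM in UNTREATED. HEY2 and HES6, repressors of the Notch and neurogenic pathways, rose 2.81-fold and 2.17-fold, while HES4 fell by 0.81. Among nuclear receptors, the orphan receptor RORB rose 2.31-fold and the retinoic acid receptor RARB fell 2.82-fold. Of 409 numbered zinc finger genes, mainly KRAB repressors, 166 (40.6%) were higher and 82 (20.0%) lower, beside 33.5% and 34.2% of all genes. Without the replicate block 132 were higher and 66 lower. The median log2 change was only 0.06, and only 2 changed at least 2-fold and both fell.

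Among outputs of the ERK pathway, a pair of immediate early genes rose most. EGR1, a zinc finger factor induced within minutes of ERK activity, had 590, 667 and 527 CPM in COMBO, against 178, 166 and 176 CPM in UNTREATED (3.41-fold). FOS, the AP-1 subunit, had 101, 104 and 89.1 CPM in COMBO, against 29.6, 32.9 and 29.7 CPM in UNTREATED (3.19-fold). Of all 10 measured feedback and output genes 5 were higher and 3 lower, and DUSP10, EPHA4 and SPRED3 fell by 0.27 to 0.69. KSR2, a RAF-MEK scaffold, rose by 1.24 and MAPK3, which encodes ERK1, fell by 0.58. Among receptor tyrosine kinases, ROS1 fell 7.44-fold to 1.72, 1.85 and 4.1 CPM in COMBO, against 17.5, 18.1 and 18.3 CPM in UNTREATED, MST1R fell 4.94-fold and FGFR4 rose by 0.91. Ligands divided too: VEGFC fell 3.55-fold and AREG 2.31-fold, while KITLG, which signals to the melanocyte receptor KIT, rose to 74.6, 74.6 and 80.2 CPM in COMBO, against 34.4, 38.3 and 33.5 CPM in UNTREATED. In the PI3K and mTOR list, SESN3 was joined by the PI3K regulatory subunit PIK3R3 (log2 change 0.96), and IRS1, the insulin receptor adaptor, fell by 0.86.

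Histone genes were mostly higher. Of 19 members 18 (94.7%) were higher, 8 of them at least 2-fold, and the median was 0.78. HIST1H2BD had 71.5, 71.2 and 91.9 CPM in COMBO, against 22.2, 18.9 and 28.8 CPM in UNTREATED. HIST1H2AC had 223, 239 and 260 CPM in COMBO, against 80.2, 102 and 105 CPM in UNTREATED. HIST1H2BC rose 3.43-fold and HIST1H1C, a linker histone, by 0.78. The exception was H2AFY2, which encodes the variant macroH2A2 and fell by 0.83. Histone genes are near-identical in sequence, so reads could be split between them, and poly(A) libraries miss the histone mRNAs that lack a tail. Other chromatin genes moved little: of 23 histone methylation and Polycomb genes 10 were lower and 4 higher (2 higher without the replicate block), none of them 2-fold, and the acetyltransferase KAT2B rose by 0.82.

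Tubulins and the listed neuronal genes were mostly higher. Of 9 genes matched by the tubulin pattern 8 (88.9%) were higher, a count that was 5 without the replicate block. TUBB3, the neuronal beta tubulin, had 126, 138 and 131 CPM in COMBO, against 52.7, 51.7 and 48.5 CPM in UNTREATED, and TUBB2A rose 2.01-fold. Dyneins and dynactins, the motors that move along microtubules and their partners, went the other way, with 8 of 13 lower, 2 higher and a median of -0.26. The lower count was 6 without the replicate block, and the median was -0.15 without COMBO replicate 2. Of 25 neuronal and synaptic genes 17 (68.0%) were higher and 6 (24%) lower. SYN1, a synaptic vesicle protein, had 26.2, 24.3 and 23.1 CPM in COMBO, against 11.5, 9.13 and 7.54 CPM in UNTREATED. NRXN3 and NLGN1, which meet across synapses, rose by 1.15 and 0.94, and the vesicle calcium sensor SYT1 by 0.89. KIF1A, the motor of synaptic vesicle precursors, went far the other way, with 66.1, 75.3 and 80.2 CPM in COMBO, against 508, 495 and 534 CPM in UNTREATED. Guidance genes were mixed: SEMA6B fell 8.16-fold and ROBO4 7.13-fold, while SEMA3G rose 2.73-fold, UNC5D 2.62-fold and NTN1 2.38-fold.

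The measured genes of DNA replication, mitosis and DNA repair changed little. Of 55 listed DNA replication genes only 12 were measured, with 4 higher and 5 lower (2 and 2 without the replicate block). Their changes ran from -0.38 for the polymerase subunit POLE2 to 0.24 for the chromatin assembly factor CHAF1B. POLE2 had 93.5, 96.3 and 98.3 CPM in COMBO, against 123, 128 and 124 CPM in UNTREATED. Of 70 listed mitosis genes only 8 were measured, with 3 higher and 2 lower and the largest change at 0.39 (CENPI). Of 75 listed DNA repair genes 38 were measured, with 14 (36.8%) higher and 7 (18.4%) lower, none of them 2-fold. E2F2, an S phase transcription factor, was an exception, with 91.4, 92.7 and 79.7 CPM in COMBO, against 181, 179 and 182 CPM in UNTREATED. The list of CDK inhibitors and senescence genes differed, with 6 of 8 lower, 4 of them at least 2-fold, 2 higher and a median of -0.99. In it CDKN1C, the CDK inhibitor p57, fell 2.68-fold. Of 37 listed regulators of apoptosis 23 were measured, with 13 lower and 6 higher: the inflammatory caspase CASP4 fell 2.36-fold, BCL2A1, an anti-apoptotic NF-kB target, 2.01-fold and CFLAR, which blocks caspase 8, by 0.60, while BCL2L11, the BIM gene, had 209, 207 and 228 CPM in COMBO, against 135, 135 and 134 CPM in UNTREATED.

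Stress and metabolic genes moved in both directions, and their shares stand beside 33.5% higher and 34.2% lower over all genes. GDF15, a secreted stress cytokine, had 8.79, 8.69 and 14 CPM in COMBO, against 71.1, 75.3 and 80.7 CPM in UNTREATED. Of 13 genes of the ATF4 response 9 (69.2%) were lower, with a median of -0.50, but only GDF15 at least 2-fold. The 3 that rose (2 without the replicate block) were SESN2, DDIT3 and VLDLR, by 0.32, 0.28 and 0.24. Of 21 p53 targets 10 (47.6%) were higher and 3 lower, all by less than 2-fold except GDF15 and TNFRSF10C, which fell. AKR1C1, AKR1C2 and AKR1C3, aldo-keto reductases that share reads, fell by 2.39, 1.76 and 1.10 on the log2 scale, and SOD3, the extracellular superoxide dismutase, rose 3.71-fold. SAT1, which acetylates polyamines for export, had 380, 397 and 381 CPM in COMBO, against 140, 150 and 147 CPM in UNTREATED. Of 18 fatty acid oxidation genes 11 (61.1%) were higher, with ACADSB up by 0.83 and ETFDH by 0.51, while the acyl-CoA synthetase ACSL5 fell 4.2-fold. The lactate exporter SLC16A3 fell by 0.94 and 6 of 9 glycolysis genes were lower, with a median of -0.40. Of 38 lysosomal genes 20 (52.6%) were higher, among them the glycosidases MANBA and NEU1 (log2 changes 0.77 and 0.63), and 11 (28.9%) lower, among them CTSS.

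The named genes were also measured with each agent alone. Because they were picked by their COMBO change, and these contrasts share the COMBO libraries, the following values are a description. For all 15 genes with the largest falls, the group means ran in the order COMBO, OTX015, SEL201, UNTREATED from low to high. MMP9 averaged 36.9 CPM in COMBO, 491 CPM in SEL201, 102 CPM in OTX015 and 1012 CPM in UNTREATED. All 15 were lower in COMBO than in SEL201 by edgeR, where 27.4% of all genes were, and 14 were lower than in OTX015, where 12.2% of all genes were. The exception was SEMA5A, at 3.82 CPM in COMBO and 3.94 CPM in OTX015 (log2 difference -0.14, edgeR adjusted p = 0.68). Among the 14 rises given above, all were higher in COMBO than in SEL201 (26.0% of all genes) and 13 higher than in OTX015 (10.0% of all genes), PCDH19 being the exception (log2 difference 0.35, adjusted p = 0.14). TAC1 was the one rise with a higher mean in SEL201 (72.3 CPM) than in OTX015 (39.3 CPM), with 129.7 CPM in COMBO and 26.7 CPM in UNTREATED.

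**Figure D5:**
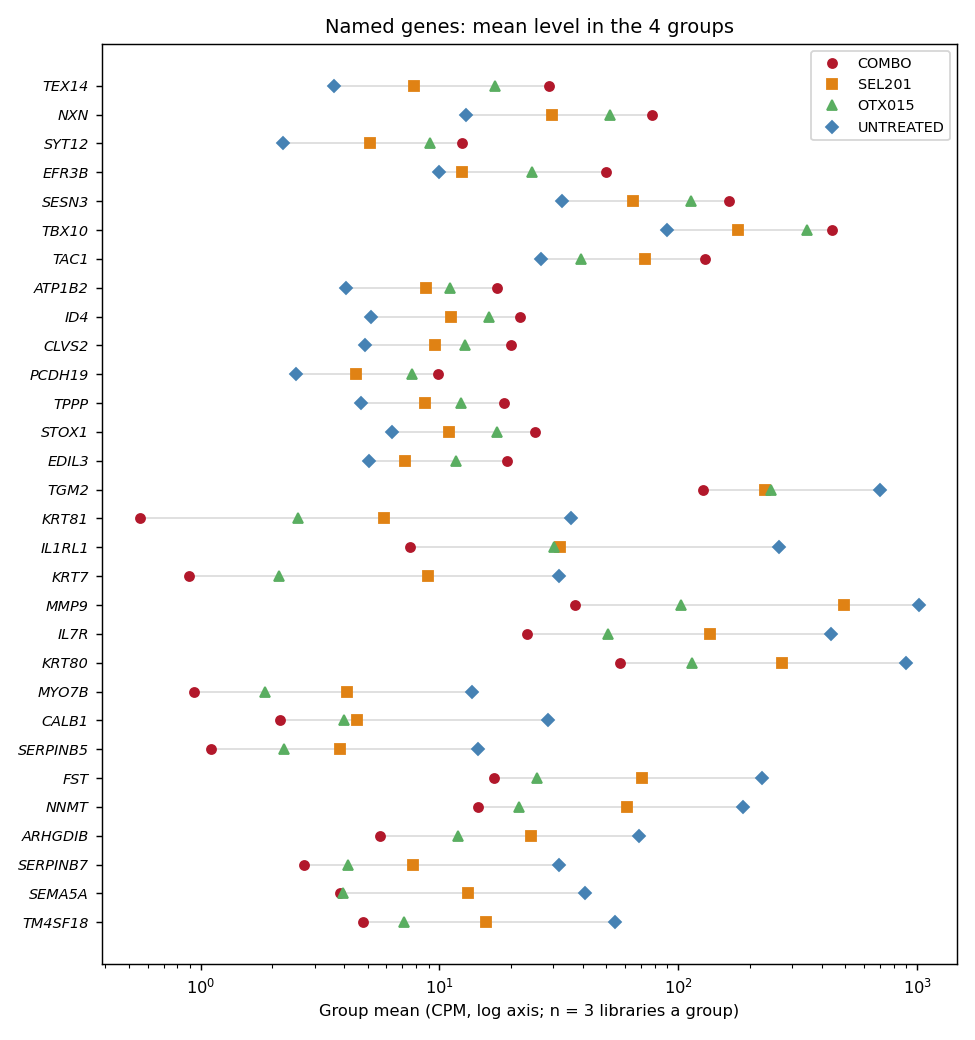
Mean CPM on a log axis in COMBO, SEL201, OTX015 and UNTREATED (3 libraries each) for 14 genes with the largest rises, TGM2 and the 15 genes with the largest falls. In every row the COMBO mean is the most extreme and lies farthest from the UNTREATED mean, with 0.56 CPM against 35.5 CPM for KRT81.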

How the data were processed

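RNA of A375 cells was sequenced, and the authors deposited whole-number counts for each gene, with no normalisation. The tools in the submitters' processing notes, listed without roles, include STAR 2.5.4b, featureCounts, SAMtools 1.9 and DESeq2, and the build is hg19. Libraries were stranded and poly(A)-selected, per the labels' protocols. The sources used here give neither the annotation nor the strand setting of the counting. Near-identical, overlapping and antisense genes are therefore uncertain. All 8579 genes of the table passed edgeR's filter on low counts.

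From these counts, edgeR 4.0.16 in R 4.3.3 fitted all 12 libraries with TMM scaling and the replicate number as a block, followed by quasi-likelihood tests with Benjamini-Hochberg adjustment over all genes. An adjusted p under 0.05 was a call. CPM are TMM-scaled counts over the analysed genes. Same-number libraries correlated in their deviations from the group means (0.26 to 0.57 over 18 pairs in all groups, against -0.46 to 0.19 over 36 pairs of different numbers), so the number was taken to pair them. In simulated data for COMBO against UNTREATED over 8579 genes, only 50 genes were changed at each fold, in random directions. Means, replicate effects and dispersions were taken from the real data. The fit called 68% of genes changed by 1.25-fold, 98% by 1.5-fold and 100% by 2-fold and 3-fold, with 9 calls among unchanged genes. Far more genes were called in the real data, so these rates cannot be carried over to them.

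Members and the 113 gene lists were chosen with earlier results of these data known. Genes were named by rule: the 15 largest rises and falls by log2 change among called genes with at least 5 CPM in COMBO or UNTREATED, no overlap and 1 direction in all pairs, with clone-based, open-reading-frame, antisense, LINC and other placeholder symbols (FAM, TMEM and KIAA numbers among them) passed over; the drug target lists; and in each list up to 4 called genes by p in the commoner direction and up to 3 in the other. FAM46C, whose rise would otherwise rank among the largest, is therefore named under its list only. Any others were chosen after their values were seen, and a few genes are not reported here. Promoters came from RefSeq. Alternatives were DESeq2 1.42.0, other size factors, other filters, no replicate block, only the 6 libraries compared, and each library or number left out.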

Additional observations from a re-analysis of the deposited data

How the results depend on the processing

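The counts of genes higher (2876), lower (2934), at least 2-fold higher (175) and at least 2-fold lower (590), and the fall of TGM2, stayed within 1.5 times or on their side of the threshold in all 15 alternatives. Without the replicate block the counts were 2426, 2536, 174 and 584, and 4960 of these 4962 calls were also made with the pairing. With DESeq2 they were 2841, 2840, 175 and 589, and with a minimum of 10 CPM, which left 7341 genes, 2582, 2602, 139 and 454. With libraries left out they ran from 2472 to 2724, 2596 to 2797, 171 to 184 and 578 to 597, and the log2 change of TGM2 from -2.48 to -2.43. Of 673 genes covered by the naming rule, 671 were called and 52 lost the call in at least 1 alternative, 36 of them without the replicate block. Of 226 counts of calls per list and direction, 25 moved by over 1.5 times without it. Of the 113 list medians, 20 moved by at least the SD of their pair medians without COMBO replicate 3, the most of any alternative. EIF4ENIF1 gained a call without UNTREATED replicate 3 (log2 change 0.11, edgeR adjusted p = 0.0401, against 0.0565 to 0.871 in its other alternatives). Only TGM1 reversed its sign, which was never called: its log2 change ran from -0.22 to 0.090 with libraries left out and was 0.090 without COMBO replicate 1, 0.05 without COMBO replicate 2, 0.01 without UNTREATED replicate 2, 0.05 without replicate 1 and 0.06 without replicate 2. The call of EIF4A1 needs the pairing (log2 change 0.30, edgeR adjusted p = 0.24 without the replicate block). Low counts limit the value of KRT81, which had 5 to 18 counts per COMBO library.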

Other observations

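Gene classes differed in how many members were called. Of 7019 protein-coding genes, 35.8% were higher and 36.4% lower in COMBO than in UNTREATED, of 973 long noncoding RNA genes 20.7% and 28.9%, and of 483 pseudogenes 26.5% and 15.7%. Their median mean counts also differed, at 2166, 267 and 299, and the part of depth in these shares was not tested. MIR31HG, the host gene of miR-31, rose by 1.23 on the log2 scale, and the imprinted H19 fell by 0.93. CYTOR and MIR4435-2HG, which are near-identical genes, fell by 0.66 and 0.73.

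Of 14 circadian clock genes, 7 were higher and 4 lower, none of them 2-fold. NFIL3, a repressor of clock output, rose by 0.74 and PER1, of the repressing arm, by 0.46, while PER2 fell by 0.58 and BHLHE40 by 0.46.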
